A study of Rattus norvegicus with 4 samples.

Results

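The nucleosomes kept in the sperm of cyproterone acetate-treated rats were compared with those of control rats along chromosome 2. All 969963 positions listed for that chromosome in the comparison of cyproterone acetate with the pooled controls were taken, of 3786828 positions in the 6 tables of the series. A position is a stretch of 200 bp around a nucleosome called in either side of the comparison. The animals were Holtzman rats aged 75 days and weighing about 300 g, in groups of 6. The treated group received cyproterone acetate orally at 20 mg/kg/day for 60 days in sterile water, and the control group received the water alone. Spermatozoa came from the cauda epididymis, and every library, treated or control, was made from fragments of about 150 bp left by micrococcal nuclease. There was 1 cyproterone acetate library and 2 control libraries. The number of animals behind each library is not in the labels, so the spread between the controls may be technical, and with 1 treated library no test is possible. Genomic DNA was measured, so cell type markers could not be checked. Per the labels' protocols, the preparations were looked over by microscope for round cells.

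During the last phase of spermatogenesis most histones are replaced by protamines, which pack the DNA too tightly for nucleosomes. A small part of the genome keeps its histones, and a light digestion with micrococcal nuclease, which cuts the DNA between nucleosomes, frees this part as single nucleosome fragments. Cyproterone acetate is a steroid that blocks the androgen receptor and also acts as a progestogen, lowering gonadotropin release, and germ cell maturation depends on androgen action in the testis. Occupancy is the coverage at the summit of a position, and fuzziness is the spread of fragment centres about it: a low value marks a nucleosome held at 1 place in the cells sampled. No gene is named below, since no annotation of the build used (rn6) was used here.

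Coverage rose in fixed steps, each worth 0.5 reads or 1 read, so it could be turned into reads for each library. Summed over summits, the cyproterone acetate library held 1563294.5 reads at 798582 positions, the shallower control 1067555 at 577274, and the deeper control 1170574 at 656231. The steps placed cyproterone acetate at 1.52 times the depth of the shallower and 1.37 times that of the deeper control. A summit held 1.96 reads on average with cyproterone acetate and 1.85 and 1.78 in the controls, and 45.2%, 50.3% and 50.5% of the positions with reads held 1 read or less. Most single positions were therefore too thin to compare, and the results rest on strong positions and on sums over windows.

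The cyproterone acetate library held more strong positions than either control, and the excess grew with read number. At 5 or more reads there were 32009 positions with cyproterone acetate, and the shallower and deeper controls had 21506 and 16953. At 10 or more reads there were 2229 with cyproterone acetate against 659 and 347, at the libraries' own depths. At 20 or more the counts were 296 against 39 and 39, and at 50 or more 43 against 0 and 2. The fullest position held 166.5 reads with cyproterone acetate and 46 and 56.5 in the controls. With each cyproterone acetate summit thinned to the depth of the shallower control, between 104 and 107 positions of 20 or more reads are left, depending on how 0.5 reads are rounded, against 39. Thinned to the depth of the deeper control, 131 to 136 are left, also against 39. At 10 or more reads the thinned counts are 806 to 863 against 659 in the shallower control, and 1047 to 1122 against 347 in the deeper one. At 5 or more reads the order turned: thinned to the shallower control, 10303 to 11354 positions are left against 21506, although a summit chosen at full depth is understated by thinning. Positions of 10 or more reads carried 2.23% of the cyproterone acetate reads and 0.777% and 0.414% of the control reads.

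**Figure D1:**
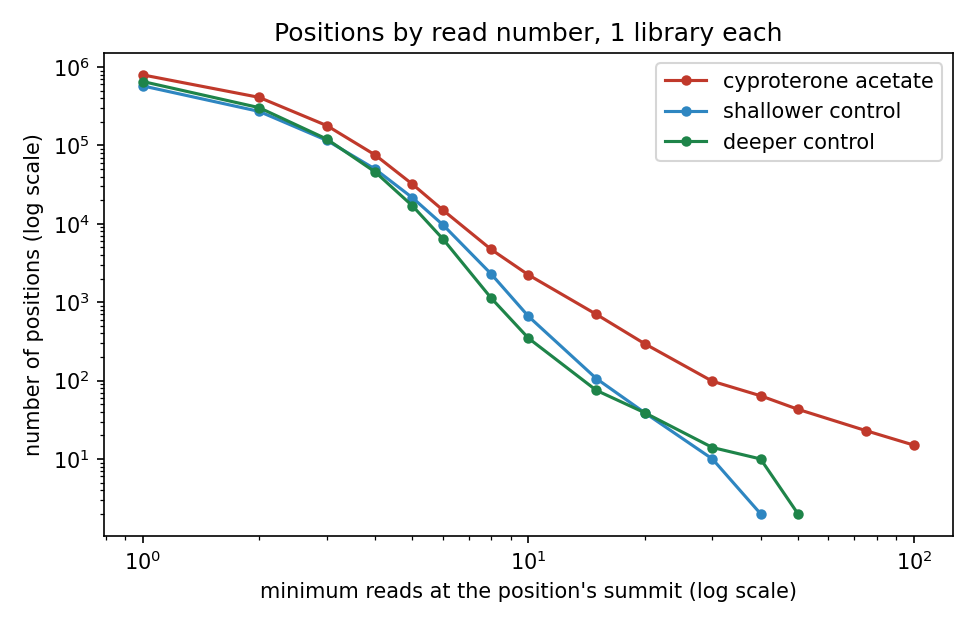
Number of positions on chromosome 2 (y axis, log scale) with at least the number of summit reads on the x axis (log scale), 1 line for each library. The lines lie close together up to 5 reads, and at 20 or more reads the cyproterone acetate library has 296 positions against 39 in each control.

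Strong positions lay in clusters along the chromosome. Segment 20 of 27, chr2:190000001-200000000, held 216 positions of 10 or more reads with cyproterone acetate, and the controls held 78 (shallower) and 70 (deeper). Segment 1, the start of the chromosome, held 203 against 82 and 66, and segment 16 held 157 against 83 and 55. These segments were full in all 3 libraries. Segment 19, chr2:180000001-190000000, held 173 with cyproterone acetate and 16 and 5 in the controls. Segment 3, chr2:20000001-30000000, held 138 against 17 and 2, and segment 13 held 105 against 14 and 4. In these segments cyproterone acetate was high, while both controls stayed far below their own counts in segments 1, 16 and 20. All these counts are at the libraries' own depths, and the part of the greater treated depth in them was not tested. Segment 14, chr2:130000001-140000000, had no excess: its 19 positions lay between the 22 and 15 of the controls.

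**Figure D2:**
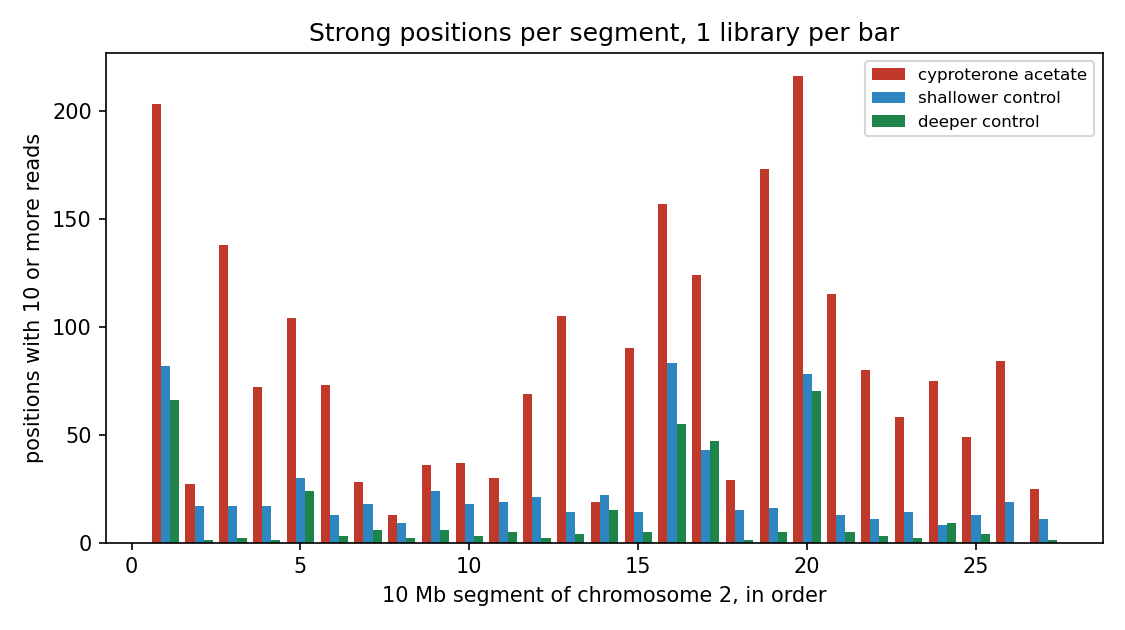
Positions with 10 or more reads (y axis) in each 10 Mb segment of chromosome 2 in order (x axis), 1 bar for each library. The controls peak in segments 1, 16, 17 and 20, while cyproterone acetate is also high in segments 3 and 19, with 138 and 173 positions. Counts are at each library's own depth.

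Strong positions of the treated library also lay next to each other more often. Of its positions with 5 or more reads, 4.56% were followed by another at 150 to 220 bp, the distance of neighbouring nucleosomes, and the shares were 1.5% (shallower) and 1.47% (deeper) for the controls. Runs of 3 or more such positions with steps of at most 300 bp numbered 662 with cyproterone acetate and 86 (shallower) and 83 (deeper) in the controls. They took in 8.01% of its strong positions and 1.39% and 1.89% of those of the controls. Runs of 6 or more numbered 63, 3 and 12, and the longest held 25 positions with cyproterone acetate and 7 and 9 in the controls. With the minimum raised to 8 reads for the deeper treated library, 177 runs of 3 or more were left among 4715 positions, 14 runs held 6 or more, and the longest held 11, close to the 12 and 9 of the deeper control. A larger number of strong positions gives closer neighbours by itself: their median spacing was 3985 bp with cyproterone acetate and 7410 and 9065 bp in the controls. At 8 reads the treated library has fewer strong positions than either control at 5 and still the larger number of runs of 3 or more. These run rules were chosen after the data were seen.

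Shares of single positions 2-fold apart were large in both comparisons, and their order depended on the positions taken. With cyproterone acetate 39.5% of all positions were at least 2-fold higher and 28.8% at least 2-fold lower than the pool, 68.3% in all. Between the controls 35.3% were at least 2-fold higher and 38.0% at least 2-fold lower in the shallower one, 73.3% in all. Each of these shares is itself the background, as it counts every position. A lone read is worth 6.37 units with cyproterone acetate but 4.36 or 4.84 units in the pool, and only 0.193% of positions had under 5 units on both sides. Of all positions, 262416 (27.1%) had cyproterone acetate reads alone, 51.7% of them with 1 read or less. The 171265 positions (17.7%) with control reads alone held 1 read or less in 0.562% of cases. The part of this floor, or of the greater depth, in the split of higher and lower positions was not tested. Among positions with at least 10 units on 1 side, 37.4% were higher and 32.5% lower, against 37.0% and 33.0% between the controls. With at least 20 units the split was 33.0% and 39.4%, against 37.7% and 35.3%. With at least 40 units 84.7% of positions were 2-fold apart with cyproterone acetate and 77.9% between the controls. The split was 43.6% and 41.1%, against 60.7% and 17.2%. A read is worth 8.44 or 7.60 units in the control table, so a floor in units takes fewer reads there. With reads on both sides the shares 2-fold apart were 42.6% and 36.4%.

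The pooled column could be separated exactly into reads of each control, which places all 3 libraries at each position. All 3 had reads at 25.2% of positions, cyproterone acetate and the deeper control at 17.0%, cyproterone acetate and the shallower at 13.1%, and both controls without it at 9.65%. At the 559 positions with 5 or more reads in each library, cyproterone acetate was at least 2-fold apart from the shallower control at 35.2% and from the deeper at 23.4%, while the controls were 2-fold apart at 10.9%. The controls are read here at 1 shared summit and cyproterone acetate at its own, which puts the controls closer together. A minimum of 5 reads is also a higher scaled level in the shallower libraries, and the median log2 ratio at these positions was -0.49 to the shallower and -0.31 to the deeper control.

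Over windows of 100 kb, the log2 ratio spread more widely between cyproterone acetate and each control than between the controls. The SD of the log2 ratio over 2605 windows was 0.168 against the shallower control, 0.149 against the deeper control and 0.125 between the controls. Poisson counting alone gives 0.103, 0.10 and 0.110, which leaves 0.133, 0.110 and 0.0599. Part of this extra spread came from few windows: the spread taken from the median absolute deviation, which far windows do not move, was 0.143, 0.125 and 0.118. The ratios to each control set treated reads at the 969963 positions of the treatment table against control reads at the 868880 of the control table. The ratio between the controls stays within the control table. The part of position calling in the wider spread was not tested. Over the pool, within the treatment table, the SD was 0.148. Window ratios are given relative to the median window, which lay 0.106 toward cyproterone acetate. At a threshold of 0.32 on the log2 scale, 60 windows were higher with cyproterone acetate than the pool (2.30%) and 19 were lower (0.729%). Between the controls 12 windows (0.461%) and 22 windows (0.845%) passed it. Of the 60 higher windows 38 passed it over each control, and of the 19 lower ones 4 did.

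**Figure D3:**
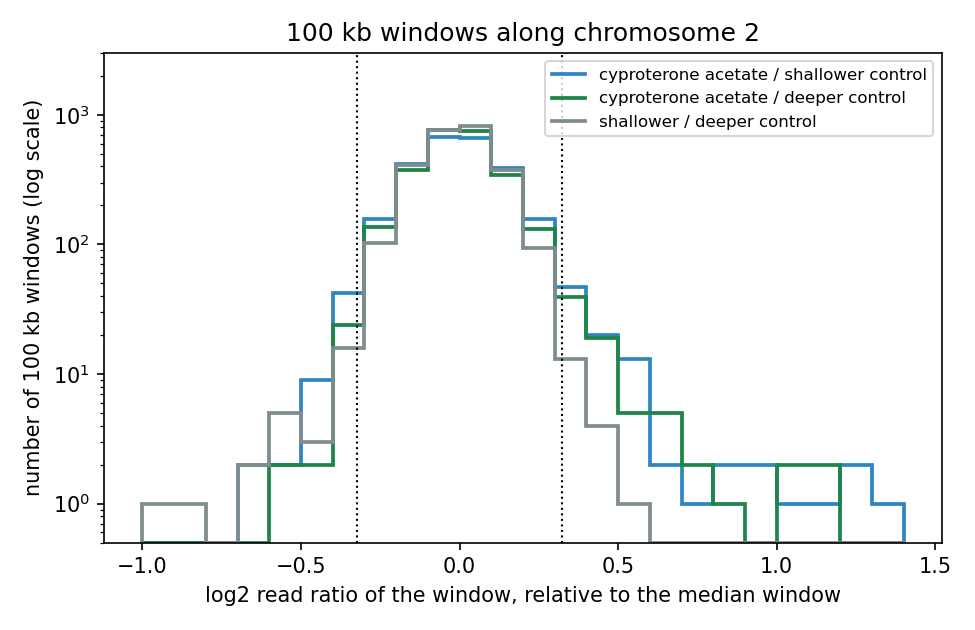
Number of 100 kb windows (y axis, log scale) by log2 read ratio relative to the median window (x axis), with 1 outline for each pair of libraries and dotted lines at 0.32 on both sides. Both cyproterone acetate outlines reach beyond 1.1 on the right, where the ratio of the controls ends at 0.57, while on the left the controls reach furthest, to -0.91. Treated reads are from the treatment table and control reads from the control table.

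The higher windows were mostly windows with strong positions. Of the 60, 46 (76.7%) held a cyproterone acetate position of 10 or more reads, against 34.2% of all windows, and 3 of the 19 lower windows did (15.8%). Those 60 windows held 393 of the 2229 strong positions, 17.6%. With no position counted for more than 3 reads, 16 of the 60 and 7 of the 19 still passed the threshold, although 58 and 19 kept their sign. This limit was set at each library's own depth. Positions of 3 or more reads held 44.5% of the treated reads and 41.4% (shallower) and 37.6% (deeper) of the control reads. The part of the greater treated depth in the loss of windows was not tested. The higher and lower windows were chosen on the treated reads, so the shares of windows with strong treated positions are a description.

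The window furthest above the controls was chr2:1300001-1400000. It held 1546.5 reads with cyproterone acetate, 439 in the shallower control and 536 in the deeper one. Scaled to RPM, the reads of a window per 1000000 summit reads of its library, this is 989 with cyproterone acetate and 411 and 458 in the controls. Cyproterone acetate was high and the controls lay close together: the log2 ratio was 1.16 over the pool (95% exact Poisson interval of the read ratio 1.08 to 1.32, counting error only), and -0.16 between the controls. The window held 48 positions of 10 or more reads with cyproterone acetate and 3 and 6 in the controls. Its ratio was 0.29 when each position counted for no more than 3 reads.

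Next came chr2:49300001-49400000, with 1246 RPM with cyproterone acetate and 497 and 595 in the controls, a log2 ratio of 1.09. Its 48 strong positions stood against 11 and 18, and its ratio was 0.056 under that limit. The window chr2:197100001-197200000 had 960 RPM against 437 and 444, a ratio of 1.08 that turned to -0.089 under that limit. In the first, the 5 fullest positions held 29.2% of the treated reads and 29.7% and 26.1% of the control reads. In the second they held 30.4% against 18.3% and 19.5%. The limit of 3 reads also flattens a ratio where many positions hold more than 3 reads in every library. It therefore does not show where in these windows the difference lay.

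The window chr2:5500001-5600000 kept more of its ratio under the limit of 3 reads than the windows above. It had 619 RPM with cyproterone acetate and 348 and 384 in the controls, a ratio of 0.79, and its 5 fullest positions held only 7.23% of its treated reads. Of its 425 positions, 11 held 10 or more reads with cyproterone acetate and 0 and 0 in the controls. Its ratio was 0.54 under the limit of 3 reads, so the higher level did not lie in these strong positions alone. The other 6 of the 10 highest were chr2:193500001-193600000 (0.96), chr2:197300001-197400000 (0.81), chr2:160800001-160900000 (0.81), chr2:160900001-161000000 (0.71), chr2:129900001-130000000 (0.68) and chr2:128800001-128900000 (0.65). All 10 lay above both controls, 9 passed the threshold over each of them, and in chr2:129900001-130000000, with 60 treated reads, the counting interval took in 0. In that window the ratio was 0.30 over the shallower and 0.37 over the deeper control alone, under the 0.68 over the pool. In chr2:160800001-160900000 it was 1.24 over the shallower and 0.63 over the deeper control, and the log2 ratio between the controls was -0.61.

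The lowest windows held 32 to 695 treated reads each, and 1 of the 10 held treated positions of 10 or more reads. In chr2:133600001-133700000 there were 32 reads with cyproterone acetate and 35 in each control, or 20.5, 32.8 and 29.9 RPM. Its log2 ratio was -0.61, and its counting interval, -1.25 to 0.03, took in 0. The window chr2:137100001-137200000 held 302 reads against 296 and 284, or 193 RPM against 277 and 243, a ratio of -0.51 with an interval of the read ratio of -0.61 to -0.20. It held 7 positions of 10 or more reads with cyproterone acetate and 10 and 7 in the controls, and its ratio was -0.31 over the deeper control alone. In chr2:145300001-145400000 there were 243 RPM against 337 and 318, a ratio of -0.44, and the ratio stayed at -0.34 under the limit of 3 reads. The windows chr2:46100001-46200000 (-0.42) and chr2:46200001-46300000 (-0.39) lie side by side. The ratio of the first was -0.24 over the deeper control alone, and that of the second -0.25 over the shallower alone. The other 5 ran from -0.55 to -0.36: chr2:7200001-7300000, chr2:162900001-163000000, chr2:129500001-129600000, chr2:118600001-118700000 and chr2:113700001-113800000. Over the deeper control alone chr2:7200001-7300000 was at -0.29 and chr2:129500001-129600000 at -0.15. All 10 lay below both controls, 3 passed the threshold below each of them, and 7 had an interval that leaves out 0.

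**Figure D4:**
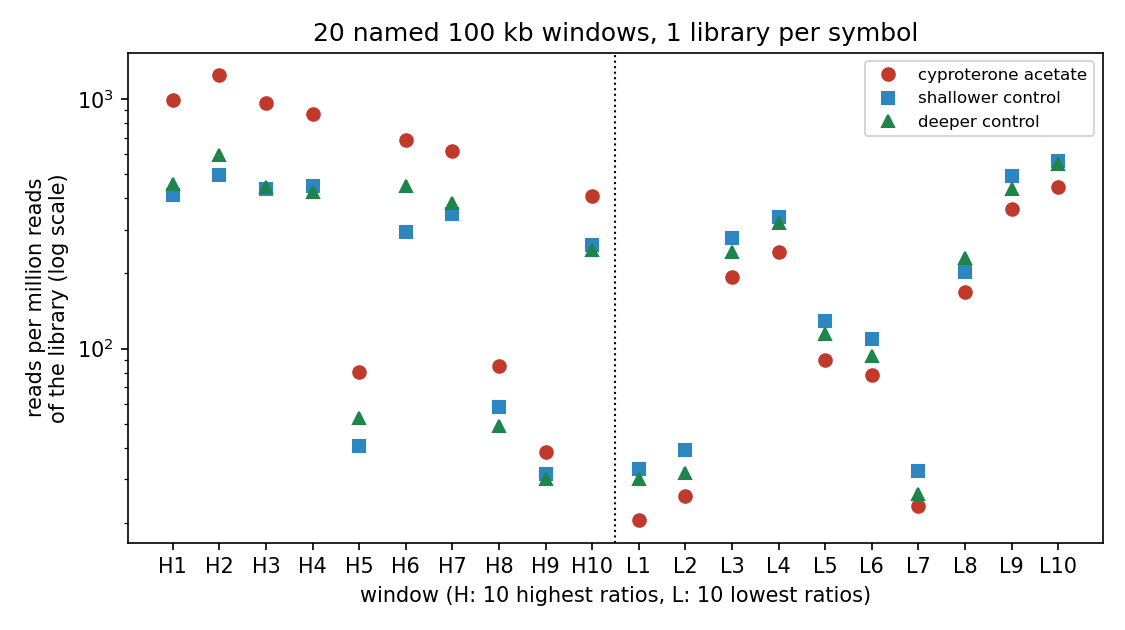
Reads per 1000000 reads of each library (RPM, y axis, log scale) in the 10 windows with the highest (H1 to H10) and the 10 with the lowest ratio (L1 to L10), with 1 symbol for each library. Cyproterone acetate lies above both controls in all 10 high windows and below both in all 10 low ones, since the windows were chosen on this ratio.

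Ratios of neighbouring windows went together more with cyproterone acetate. Across 2568 pairs of adjacent windows the correlation of the ratio was 0.18 over the shallower and 0.16 over the deeper control, and 0.050 between the controls. At 10 windows apart it was 0.069, 0.061 and 0.0063. Over the pool, where both sides come from the treatment table, the correlation of adjacent windows was 0.14. Adjacent windows share a library and its depth, and a bias by base composition was not tested. Between the controls the SD over windows was 0.125, and counting alone gives 0.110. Over the shallower control these values were 0.168 and 0.103, and over the deeper 0.149 and 0.10. The part of counting error in these correlations was not tested. Over segments of 10 Mb the differences were small. The median window ratio to the pool ran from -0.065 in segment 14 to 0.039 in segment 26, and between the controls from -0.045 to 0.050, and segments 11 (-0.051) and 14 lay below the range of the control pair. Over the shallower control alone the range was wider, -0.069 to 0.079, with an SD over segments of 0.040 against 0.024 between the controls. In 11 of 27 segments the ratio to the pool was larger in size than that of the control pair.

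Windows rich in control reads held slightly more cyproterone acetate reads. With windows ranked on the deeper control, the densest of 10 classes had a median log2 ratio over the shallower control of 0.050 (quartiles -0.046 and 0.16), and the medians of classes 2 to 7 lay between -0.029 and -0.0053. With windows ranked on the shallower control the densest class had 0.038 over the deeper one. With windows ranked on cyproterone acetate the ratio of the controls in the densest class was -0.0052. The sparsest class had 0.0055, 0.013 and 0.014 in these 3 rankings, and the quartiles of each class overlap those of the others.

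Summed over the fullest places of the controls, cyproterone acetate held the larger share of reads. In 27 bins of 1 kb with at least 10 times the mean in the deeper control, 0.286% of all cyproterone acetate reads lay, against 0.132% of those of the shallower control, 2.16 times as much. In 30 bins chosen on the shallower control the shares were 0.259% and, in the deeper control, 0.141%, or 1.84 times. The excess lay in part of the bins: the share was higher with cyproterone acetate in 18 of the 27 and in 14 of the 30. At 5 times the mean it was higher in 111 of 248 bins chosen on the deeper control. In those chosen on the shallower control it was higher in 111 of 338. The fullest bin by the controls, chr2:193572001-193573000, held 629 reads with cyproterone acetate and 118.5 and 95.5 in the controls, which is 402 RPM against 111 and 81.6. That is 4.21 times the controls (95% exact interval 3.60 to 4.94, counting error only). The bin chr2:156860001-156861000 had 263 RPM against 76.3 and 74.7, or 3.48 times, and chr2:49364001-49365000 had 260 against 79.6 and 91.4, or 3.03 times. In chr2:49293001-49294000 and chr2:160885001-160886000 the excess was 1.68 and 1.70 times. In all 5 the treated library lay above both controls, by more than the controls lay apart.

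Among single positions with 10 or more reads on each side, 326 in 93 windows, the treated library was above both controls at 180 (55.2%) and below both at 45. This minimum is easier to meet for the pool, where a read is worth 4.36 or 4.84 units against 6.37 with cyproterone acetate, so it favours higher values of the treated library. The treated library was at least 2-fold higher than the pool at 67 and at least 2-fold lower at 11. The position centred on 6095487, chr2:6095387-6095587, held 72 reads with cyproterone acetate and 7 (shallower) and 3 (deeper) in the controls, a log2 ratio of 3.14. The position at 193573172 held 137.5 against 16 and 7.5 (2.88), and the one at 49364727 held 64.5 against 2 and 8.5 (2.92). In the other direction, the position at 161580672 held 12.5 reads with cyproterone acetate against 32.5 and 26 (-1.83), and the one at 420877 held 11 against 13.5 and 24 (-1.37). The higher extremes were larger in size than the lower ones, and the controls were not always close at the same position. Where the choice was made on a control the picture was mixed. At the 39 positions of 20 or more reads in the deeper control the mean was 42.7 RPM with cyproterone acetate and 21.4 in the shallower control, and at the 39 of the shallower control it was 30.3 against 20.7 in the deeper. Cyproterone acetate was the higher at 28 and at 20 of these 39 positions. At 657 of the 659 positions of 10 or more reads in the shallower control, those matched within 75 bp in the treatment table, it was 6.13 against 5.71, with cyproterone acetate higher at 32.3% of them.

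Bins of 5 kb were counted to describe the library at a finer scale. The rule was chosen after the data were seen: bins with at least 60 reads over the 3 libraries, each ratio centred on its median. Of 38186 bins, 353 (0.924%) were at least 2-fold above each control and 138 (0.361%) at least 2-fold below each. At 3-fold there were 51 above (0.134%) and 0 below. Between the controls alone, 504 bins (1.32%) were at least 2-fold higher in the shallower and 771 (2.02%) in the deeper one, and 17 and 44 at least 3-fold. The share above both controls at 2-fold was thus below that between the controls, where a bin has to pass 1 comparison only. These counts are unlike, and whether the count above both controls is particular to the treatment was not tested. The 353 bins lay in 299 windows of 100 kb and in all 27 segments of 10 Mb, with the largest number, 33, in segment 19. Their median was 78 reads with cyproterone acetate and 20.5 and 23 in the controls. In 89 of them no position reached 10 reads.

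Among bins with at least 60 treated reads, chr2:115890001-115895000 had the highest ratio to the mean of the controls, with 76 reads against 8 and 7. The adjoining bins chr2:1390001-1395000 and chr2:1395001-1400000 held 179 and 189 reads with cyproterone acetate against 25.5 and 22 in the shallower and 20 and 30.5 in the deeper control. They lie in the window with the highest ratio of the chromosome. In chr2:1395001-1400000 the fullest position held 8.99% of the treated reads and 18 positions held 5 or more, so the excess there was not in a single stack of reads. In chr2:550001-555000, with 130.5 reads against 20 and 17, the fullest position held 31.4%. The share of the fullest position was 11.9% in chr2:128460001-128465000 (159.5 reads against 20 and 26). It was 16.8% in chr2:258965001-258970000 (140 against 20.5 and 20) and 12.8% in chr2:148605001-148610000 (163.5 against 27 and 26.5). The medians over all bins were 35 reads with cyproterone acetate and 24.5 and 27 in the controls. Whether a further treated library would show these bins was not tested.

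The fuzziness difference was small, and its direction turned with the column used for the controls. Within the treatment table fuzziness was lower with cyproterone acetate than in the pool. At 536166 positions with reads on both sides its median was 46.9 with cyproterone acetate and 49.6 in the pool, a median log2 ratio of -0.085 (quartiles -0.34 and 0.16). Between the controls the ratio was -0.029 (40.1 against 42.7). Median fuzziness was lower at more reads in the treated library, 48.9 at 1 read and 43.4 at 5, so positions with equal reads on both sides were compared. At 2 reads the ratio was -0.098 with cyproterone acetate and -0.023 between the controls, at 3 reads -0.084 and -0.031, and at 4 reads -0.083 and -0.020. Where only the deeper control had reads at the summit of the pool, the ratio at 2 reads was -0.098, and where only the shallower had reads it was -0.070. Along the chromosome, with equal reads of 2 or more, the median was below 0 in 267 of 267 segments of 1 Mb (from -0.17 to -0.0076). Between the controls it was below 0 in 255, so a direction shared by nearly every segment was also seen between replicates. At 326 positions with 10 or more reads on each side the ratio was 0.035, against -0.028 between the controls.

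The size of this difference has to be read against how fuzziness differs between columns at the same number of summit reads of a control. The other control had no read at the summit of the pool there, and reads away from the summit were not matched. At 114240 positions the same number of deeper control reads, 2 or more, stood at the summit in the pool and the control table. The median there was 47.7 in the pooled column and 40.5 in the control table, a median log2 difference of 0.126. For the shallower control the difference was 0.134. Fuzziness thus differed between the pooled column and the control table by more than between cyproterone acetate and the pool. With each control taken from the control table, at positions matched within 75 bp, cyproterone acetate had the higher fuzziness. The ratio was 0.076 over the deeper and 0.136 over the shallower control, with read numbers not matched between the sides. At 1 read the median was 48.9 with cyproterone acetate, 37.8 in the deeper and 37.0 in the shallower control. At 5 reads it was 43.4, 41.0 and 40.1. In the authors' deposited table an FDR for fuzziness of at most 0.05 was given to 16.0% of positions for cyproterone acetate and to 18.0% in the table of the controls.

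**Figure D5:**
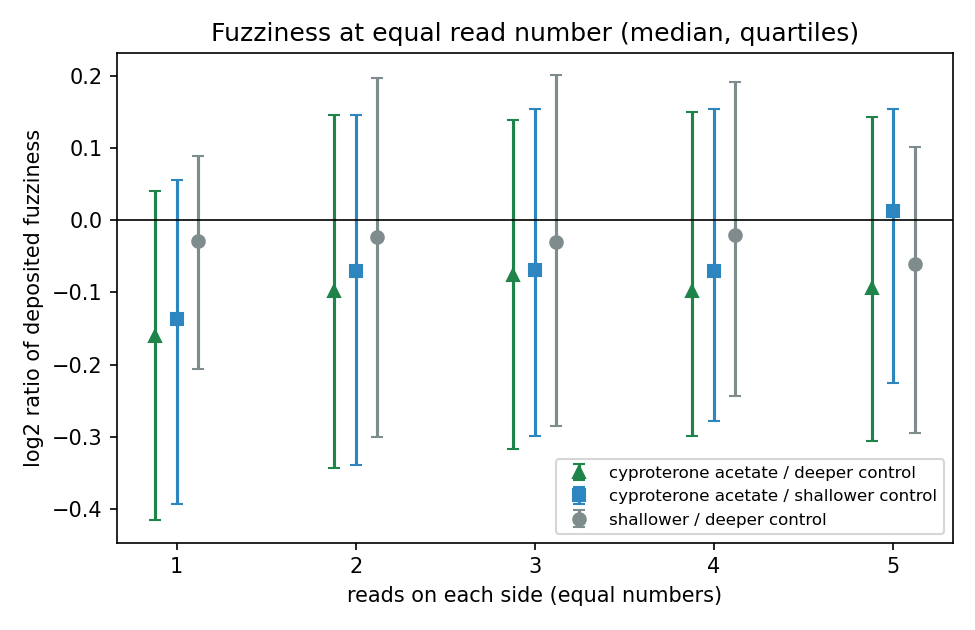
Log2 ratio of deposited fuzziness (y axis) at positions with the same number of reads on each side (x axis, 1 to 5), as the median with bars to the quartiles. The values over each control use the pooled column, at positions where the other control had no read at the summit. Those between the controls use the control table. At 2 reads the medians are -0.098 over the deeper and -0.070 over the shallower control, with -0.023 between the controls, and all bars overlap. With each control taken from the control table, the ratio at matched positions was 0.076 (deeper) and 0.136 (shallower), with read numbers not matched.

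Which comparison had the larger summit distance depended on read number. The median distance was 20 bp with cyproterone acetate and 30 bp between the controls where both sides had reads. With 1 to under 2 reads on the side with fewer it was 10 bp and 30 bp. At 2 to under 3 and at 3 to under 5 it was 30 bp in both comparisons. With 5 to under 10 it was 30 bp and 20 bp, and with 10 or more 20 bp and 12.5 bp. At 10 or more reads 57.4% of cyproterone acetate summits lay within 20 bp of that of the pool, and 70.3% of those of the controls lay within 20 bp of each other. The distances were those of the authors' deposited table.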

How the data were processed

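Nucleosome positions of chromosome 2 were analysed in 1 cyproterone acetate and 2 control libraries. The members and lists were chosen with earlier results of these data known. Bowtie2, SAMtools 1.4 and build rn6 are named in the submitters' processing notes. The position caller and its settings are not given in the sources used here. Coverage at summits is a signal deposited on a scale of the authors, per the file headers, and fuzziness is a score the authors deposited. The deposited FDR, an adjusted p-value, and the distance between summits in bp are also the authors' own, per the file headers. In the treatment table the side headed control rises in steps of 1 size and was read as the single treated library; the other side holds steps of 2 sizes, in the ratio 1.11 found between the controls, and was read as their pool. The headers do not tell control replicate 1 from 2, so the controls are called shallower and deeper. Another 4 library columns were not used.

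Coverage was divided by its step (6.37 units for cyproterone acetate, 4.36 and 4.84 in the pool, 7.60 and 8.44 in the control table) to give reads in steps of 0.5. Every pooled value split in 1 way into reads of both controls. Summit values were summed in 100 kb windows of 20 or more positions, ratios were taken relative to the median window, and 0.5 reads were added to read counts. Window ratios to each control alone, other than those from the split pool, took the control reads from the control table. Named windows are the 10 highest and 10 lowest ratios among windows with 20 positions in both tables, 100 reads over the 3 libraries and a ratio larger than that of the control pair. Named positions are the 5 highest and 5 lowest with 10 reads on each side, and named bins are the 5 fullest in the controls, of 1 kb. Genes planned by name could not be placed without an annotation of rn6. Intervals are 95% exact ones for counting error alone; without molecular identifiers, PCR copies count as reads. Scripts used Python 3.11.15, numpy 2.4.6, pandas 2.3.3 and scipy 1.17.1 and were tested on simulated data.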

Additional observations from a re-analysis of the deposited data

How the results depend on the processing

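No paired analysis was possible because the headers tie no replicate number to the control columns and there was 1 treated library and no test. The limits are 1 treated library, low depth and tables that treat both sides unequally. The percent of positions 2-fold apart (68.3) was 42.6 with reads on both sides, 53.8 with at least 5 reads, 68.9 by point value, 68.4 when centred and 69.9 with at least 10 units; against each control alone at matched positions it was 60.6 to 61.1. The SD over windows (0.148) was 0.185 in windows of 50 kb, 0.0959 in 500 kb and 0.114 with at most 3 reads per position, and 0.149 to 0.168 against each control; between the controls it was 0.165, 0.0616 and 0.110 under the first 3 settings. The 60 higher and 19 lower windows became 234 and 119 of 50 kb, 5 and 0 of 500 kb, and 19 and 7 with at most 3 reads per position; between the controls these settings gave 114 and 141, 0 and 0, and 9 and 17. With at least 100 positions per window 12 were lower. Against each control alone 63 to 89 windows were higher and 15 to 47 lower; without the deeper control 36 were lower. The median fuzziness ratio (-0.085) was -0.034 with at least 5 reads on each side and -0.12 with summits within 20 bp. Against each control alone it ran from -0.098 to 0.136. It reversed to 0.076 (deeper) and 0.136 (shallower) at positions matched by place but not by read number. Control columns differ there by 0.126 to 0.134 at the same number of summit reads. The summit distance (20 bp) was 30 bp with at least 5 reads on each side and 0 bp at positions with reads of 1 control only; the distance at matched positions was not run, since the summit columns were not used. The bin ratio (2.16) was 1.251 at 5 times and 2.85 at 20 times the mean, and 1.84 when chosen on the shallower control. The ratio of chr2:197100001-197200000 reversed to -0.089 with at most 3 reads per position; 79 of 80 values of the named windows kept their sign. The floor of 10 units, the splitting of the pool and the 5 kb bins were added after seeing the data.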
